A study of Arabidopsis thaliana with 12 samples.

Results

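A set of 106 Arabidopsis thaliana loci had mRNA levels in dcp5-1 seedlings that were lower than in Col-0 by at least 1 log2 unit, both before and after 60 min in NaCl. They were picked from 19806 nuclear loci that averaged at least 1 FPKM over 12 libraries, out of 38088 loci in the table. FPKM counts fragments per length of transcript and per size of library, and differences are given on the scale log2(FPKM + 1), on which those of weakly expressed genes are understated. A locus entered the set when its mean was lower in dcp5-1 by at least 1 unit at 0 min and at 60 min, with every dcp5-1 library below every Col-0 library at each time. DCP5 itself and 2 further loci that met these conditions, the kinase gene CIPK20 and the cutinase gene CDEF1, were left out. Because the rule used the levels of both genotypes, the genotype differences of members below are a description and carry no test. The change between 0 and 60 min within a genotype was not used, and is tested.

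All seedlings were 5 d old, of Col-0 or of dcp5-1, a single mutant line of the gene DCP5. All had 3 d of cold at 4 °C and growth at 22 °C with 16 h of light and 8 h of dark. They had rested in liquid 1x MS medium for 30 min before 0 or 60 min in that medium with 150 mM NaCl. Each of the 4 combinations of genotype and time had 3 libraries, made from mRNA of whole seedlings. The labels do not say whether these came from separate cultures, so p-values measure only the spread between libraries, which may be technical. No group spent 60 min in medium without NaCl, so salt and the further time in liquid cannot be told apart. DCP5 stood at 48.5 to 52.1 FPKM in Col-0 and at 12.96 to 13.16 in dcp5-1 at 0 min. In the libraries of bulk tissue, fewer cells of a type and less RNA per cell cannot be told apart.

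DCP5 is a partner of the decapping complex, which removes the 5′ cap of mRNAs and opens them to decay, and it gathers with that complex in cytoplasmic granules called P-bodies. It is also known as a repressor of translation in young seedlings. P-bodies hold mRNAs that are being decapped or stored, and in plants they grow in number and size under osmotic stress.

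The condition at 0 min was met by 363 loci (1.83% of those eligible) and that at 60 min by 238 (1.2%). Both were met by 109 loci (0.55%), of which 106 remained after the 3 were left out. A further 254 loci met it at 0 min only, 129 at 60 min only, and 18 reached both mean differences but had overlapping libraries. In the members, the difference between dcp5-1 and Col-0 ran from -5.27 to -1.001 log2 units at 0 min, with a median of -1.32, and from -4.32 to -1.01 at 60 min, also with a median of -1.32. Mean FPKM in dcp5-1 was a median of 35.4% of that in Col-0 at 0 min and 36.5% at 60 min. It was below 25% in 17 members at 0 min and in 22 at 60 min. At the edge of the rule, the smaller of the differences was 1.0014 for HEI10, a gene of meiotic crossover formation, 1.0027 for AT1G67900 and 1.0028 for AT5G67390. Just outside lay AT1G30720 at 0.9959, AT4G38820 at 0.9952 and COL5 at 0.9948.

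**Figure D1:**
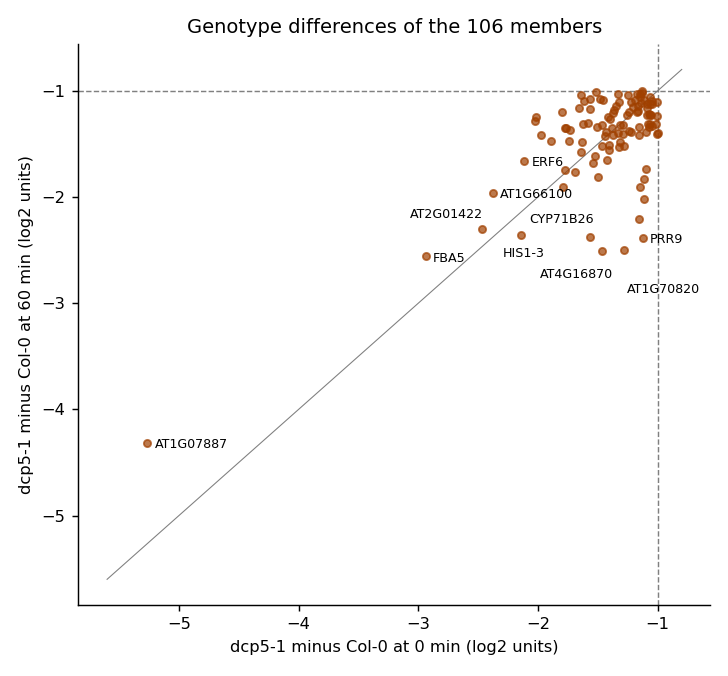
Difference between dcp5-1 and Col-0 of the 106 members at 0 min (horizontal axis) and at 60 min (vertical axis), in units of log2(FPKM + 1), one point per locus. Dashed lines mark the rule's limit of 1 unit and the diagonal marks equal differences; AT1G07887 stands apart at -5.27 and -4.32.

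By the TAIR10.1 annotation, 97 members were protein-coding, 6 were long non-coding RNAs, 2 pseudogenes and 1 another non-coding RNA. Loci that do not code for protein made up 8.49% of members and 5.49% of the 19806 nuclear loci. The 19876 loci tested also hold organelle loci, which had no annotation here. Of the non-coding members, AT1G06257, AT1G07887, AT3G02525, AT3G03145 and AT5G06505 overlap a gene on the opposite strand. Strand-specific counting is not stated, so their values may hold reads of other genes. AT3G02525 had 2.36 to 2.85 FPKM in Col-0 at 0 min, while CYSB, which it overlaps, averaged 123.7 FPKM over the 12 libraries. Reads worked back from FPKM for AT3G02525 were only about 1.3 to 1.4 per Col-0 library and 0 to 0.7 in dcp5-1 at 0 min. They were at most 4.6 at 60 min, so its level is poorly measured. The median transcript was 1562 nt long in members and 1661 nt in all loci, and the median GC content was 40.9% and 41.3%. Chromosome 2 held 27 members (25.5%), against 15.2% of all loci tested, and chromosome 5 held 18 (16.98%), against 23.2%. The median member had 23.5 FPKM in Col-0 at 0 min, against 10.07 for all loci, and members ranged there from 2.33 to 1168 FPKM.

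The lowest level relative to Col-0 was that of AT1G07887, a long non-coding RNA of 1039 nt on the plus strand of chromosome 1 (chr1:19963067-19964105, TAIR10.1). Its level was 36.8, 48.0 and 43.6 FPKM in the Col-0 libraries at 0 min and 0.112, 0.307 and 0 FPKM in those of dcp5-1. At 60 min it was 18.3, 24.2 and 20.0 FPKM in Col-0 and 0.0683, 0 and 0.213 FPKM in dcp5-1. The transcript was abundant in every Col-0 library and at or near 0 in every dcp5-1 library. It fell in Col-0 between 0 and 60 min (log2 change -1.005, limma adjusted p = 3.01e-05), although with a pseudocount of 0.1 that call was lost (limma adjusted p = 0.0617). The locus lies wholly within MRD1 on the opposite strand, which averaged 0.0872 FPKM, and shares 839 nt with HEI10 on its own strand. Reads of overlapping loci cannot be told apart here, since strand-specific counting is not stated. HEI10 had 3.35, 3.61 and 2.72 FPKM in Col-0 and 1.77, 1.03 and 0.658 FPKM in dcp5-1 at 0 min. Below are the first 200 bases of the RNA (chr1:19963067-19963266, plus strand, TAIR10.1, from RefSeq), shown because it is the member nearest to absence in dcp5-1.
AT1G07887: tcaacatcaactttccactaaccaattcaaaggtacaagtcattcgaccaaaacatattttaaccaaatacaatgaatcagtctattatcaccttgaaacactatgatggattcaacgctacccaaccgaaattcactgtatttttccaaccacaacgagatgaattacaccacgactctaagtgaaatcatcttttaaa

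FBA5, which encodes an aldolase of glycolysis and gluconeogenesis, had the next largest difference on the log2(FPKM + 1) scale, averaged over both times (-2.75). By mean FPKM relative to Col-0 at 0 min it stood at 12.6%, above the weakly expressed AT2G01422 (6.65%), AT4G16870 (8.82%) and AT1G67626 (9.55%). At 0 min it had 272, 399 and 323 FPKM in Col-0 and 40.4, 41.5 and 43.6 FPKM in dcp5-1. At 60 min the values were 102, 108 and 97.7 FPKM in Col-0 and 16.2, 16.9 and 16.5 FPKM in dcp5-1. The Col-0 libraries at 0 min were the highest and the most spread, and even the Col-0 libraries at 60 min stood above dcp5-1 at 0 min. FBA5 fell over 60 min in both genotypes, by 1.67 log2 units in Col-0 and by 1.29 in dcp5-1 (limma adjusted p = 5.24e-08 and 6.29e-07). Its annotated locus overlaps that of FBA7 on the same strand, which averaged 10.88 FPKM over the 12 libraries, so reads may be shared. Among the 7 other aldolase genes tested, a family looked up after the members were known, 4 were called lower and 2 higher in dcp5-1 at 0 min, and 0 lower and 3 higher at 60 min. In all loci tested, 28.1% were called lower and 18.8% higher in dcp5-1 at 0 min, and 27.4% lower and 27.1% higher at 60 min.

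HIS1-3, a linker histone variant known for its rise in drought, was a further deep difference whose change over time was not called. It had 41.1, 39.7 and 42.4 FPKM in Col-0 and 10.2, 7.34 and 8.29 FPKM in dcp5-1 at 0 min. After 60 min it had 47.3, 46.3 and 49.8 FPKM in Col-0 and 7.54, 8.16 and 9.92 FPKM in dcp5-1. All 6 Col-0 libraries were thus well above all 6 of dcp5-1, whatever the time. The change over 60 min was not called in Col-0 (0.21 log2 units, limma adjusted p = 0.0897) or in dcp5-1 (-0.01, limma adjusted p = 0.965), but each of these results held in only 16 of 20 settings. In Col-0 a rise was called with quantile normalization (0.48, limma adjusted p = 0.00184), with the trend with transcript length removed (0.694, limma adjusted p = 0.000216), from the 6 Col-0 libraries alone and without dcp5-1 replicate 1 of 0 min; in dcp5-1 it was called only with the length trend removed (0.308, limma adjusted p = 0.0345), and the direction turned in 3 further settings. AT2G01422, a non-coding RNA, had 6.52 to 7.94 FPKM in Col-0 and 0.208 to 0.606 in dcp5-1 at 0 min. Levels at 60 min were 5.04 to 7.59 FPKM in Col-0 and 0.338 to 0.929 in dcp5-1, and the level in dcp5-1 was too low for a change over time to be assessed. AT3G62550, annotated as adenine nucleotide alpha hydrolase-like, lay at 37.6 to 45.4 FPKM in Col-0 and 9.69 to 13.3 in dcp5-1 over both times.

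**Figure D2:**
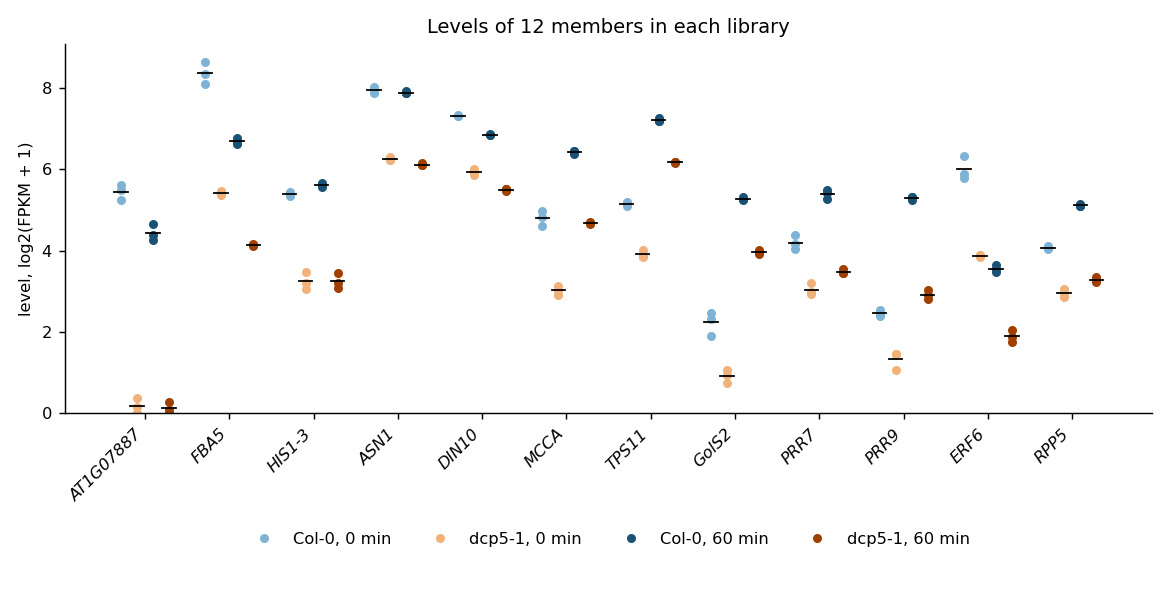
Levels of 12 members in each library as log2(FPKM + 1), with 1 point per library, 3 per group, and a bar at the group mean. For each gene the Col-0 points lie above the dcp5-1 points of the same time, as the rule required. For GolS2, TPS11, MCCA and PRR9 both genotypes are higher at 60 min, and for ERF6 and FBA5 both are lower.

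Enzymes that break down branched-chain amino acids were represented by 4 members. These amino acids, leucine, isoleucine and valine, serve as alternative fuel for respiration when sugar is short. MCCA, the biotin-carrying subunit of methylcrotonyl-CoA carboxylase in leucine breakdown, had 30.2, 23.2 and 27.6 FPKM in Col-0 and 7.84, 7.10 and 6.54 FPKM in dcp5-1 at 0 min. At 60 min the libraries had 86.3, 82.6 and 85.8 FPKM in Col-0 and 25.1, 24.2 and 24.6 FPKM in dcp5-1. Levels rose in both genotypes, so that dcp5-1 at 60 min reached about the Col-0 level of 0 min. The rise was 1.63 log2 units in Col-0 and 1.65 in dcp5-1 (limma adjusted p = 9.51e-09 and 1.1e-08). IVD, the isovaleryl-CoA dehydrogenase that acts before it, had 45.4 to 53.3 FPKM in Col-0 and 20.8 to 25.1 in dcp5-1 at 0 min, and 76.3 to 84.9 and 35.6 to 38.4 at 60 min. BCAT-2, a transaminase of the first step, had 16.9 to 20.0 FPKM in Col-0 and 6.02 to 7.17 in dcp5-1 at 0 min, and rose in both genotypes as well (1.15 log2 units, limma adjusted p = 5.06e-08, and 1.104, limma adjusted p = 9.34e-08). ALDH6B2, a dehydrogenase of valine breakdown, had 22.3 to 25.9 FPKM in Col-0 and 9.15 to 9.73 in dcp5-1 at 0 min and rose least, by 0.37 log2 units in Col-0 and by 0.23 in dcp5-1 (limma adjusted p = 0.000132 and 0.00462). The ALDH6B2 call in dcp5-1 was lost in 2 of 20 settings. The pathway was listed after the members were known and holds 13 tested genes. Of the 9 that were not members, 4 were called lower in dcp5-1 at 0 min and 5 at 60 min, and 0 were called higher at either time. Their median differences were -0.14 and -0.19, against -0.05 and -0.01 for all loci. Of all loci tested, 28.1% were called lower at 0 min and 27.4% at 60 min.

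ASN1, an asparagine synthetase that seedlings switch on in darkness and sugar starvation, had 247, 258 and 234 FPKM in Col-0 and 74.4, 77.9 and 74.2 FPKM in dcp5-1 at 0 min. Its levels at 60 min were nearly the same, at 240, 233 and 232 FPKM in Col-0 and 67.2, 70.3 and 67.3 FPKM in dcp5-1. The Col-0 libraries were about equal to each other and so were those of dcp5-1, with a wide gap between. The change over 60 min was not called in Col-0 (-0.07 log2 units, limma adjusted p = 0.21) and was called lower in dcp5-1 (-0.14, limma adjusted p = 0.0158), the latter in 16 of 20 settings. In Col-0 its direction depended on the scaling: ASN1 was called higher with quantile normalization (0.58, limma adjusted p = 1.01e-06) and lower with library medians set equal (-0.141) or the trend with transcript length removed (-0.313). DIN10, a raffinose synthase family gene, had 157 to 161 FPKM in Col-0 and 57.2 to 63.2 in dcp5-1 at 0 min, and 113 to 116 and 42.95 to 44.98 at 60 min. Both are among the dark-inducible DIN genes, a list likewise drawn up after the members were known. Of its 6 tested genes outside the set, 5 were called lower at 0 min and 6 at 60 min, with 0 called higher. In all loci tested, 28.1% were called lower at 0 min and 27.4% at 60 min. BCE2 and DIN4 of the branched-chain amino acid list above are among the 6 genes of this DIN list, so the counts are not independent. SEN1, the senescence-associated member of that list, was lower in dcp5-1 (log2 difference -0.86, limma adjusted p = 4.43e-07 at 0 min, and -1.34 at 60 min).

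Sugar metabolism beyond these supplied further members. TPS11, a class II trehalose phosphate synthase, had 35.6, 33.3 and 35.2 FPKM in Col-0 and 13.4, 13.6 and 15.2 FPKM in dcp5-1 at 0 min. At 60 min it had 145, 146 and 153 FPKM in Col-0 and 71.7, 71.2 and 70.6 FPKM in dcp5-1. It rose in both genotypes with no overlap between times, by 2.06 log2 units in Col-0 and 2.26 in dcp5-1 (limma adjusted p = 3.09e-11 and 1.68e-11). Of the 6 other class II genes tested, again listed afterwards, 5 were called lower and 0 higher in dcp5-1 at 0 min, and 5 lower and 1 higher at 60 min. The shares of all loci tested were 28.1% lower and 18.8% higher at 0 min, and 27.4% and 27.1% at 60 min. GolS2, a galactinol synthase of the raffinose pathway that is known from drought, had 2.76, 4.03 and 4.54 FPKM in Col-0 and 1.09, 0.688 and 0.927 FPKM in dcp5-1 at 0 min. After 60 min it reached 37.8, 37.1 and 38.7 FPKM in Col-0 and 15.2, 14.2 and 14.3 FPKM in dcp5-1. The rise on the log2(FPKM + 1) scale was 3.04 units in Col-0 and 3.04 in dcp5-1 (limma adjusted p = 1.24e-09 and 1.6e-09). That scale understates the rise from the low level in dcp5-1: mean FPKM grew 10.0-fold in Col-0 and 16.2-fold in dcp5-1, where it went from 23.9% to 38.4% of Col-0. Of the 3 other galactinol synthases tested, 0 were called in dcp5-1 at 0 min and 1 was called lower at 60 min. The vacuolar invertase gene ATBETAFRUCT4 had 92.0 to 119 FPKM in Col-0 and 42.2 to 44.6 in dcp5-1 at 0 min, and the beta-xylosidase gene BXL1 had 255 to 306 in Col-0 and 123 in each dcp5-1 library. The beta-galactosidase gene BGAL4, the polyol transporter gene PMT6, the inositol transporter gene INT1 and the second beta-xylosidase gene, BXL2, belonged to the set too, with dcp5-1 at 26.9% to 41.7% of Col-0 at 0 min. AT1G70820, annotated as a phosphoglucomutase, had 4.09 to 5.39 FPKM in Col-0 and 1.26 to 1.51 in dcp5-1 at 0 min, and 15.3 to 16.3 and 1.81 to 2.06 at 60 min. It rose by 1.54 log2 units in Col-0 and by 0.33 in dcp5-1 (limma adjusted p = 1.75e-08 and 0.00546); over 20 settings the latter p reached 0.185. The difference between these rises, -1.21, shares its libraries with the rule and was not tested.

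**Figure D3:**
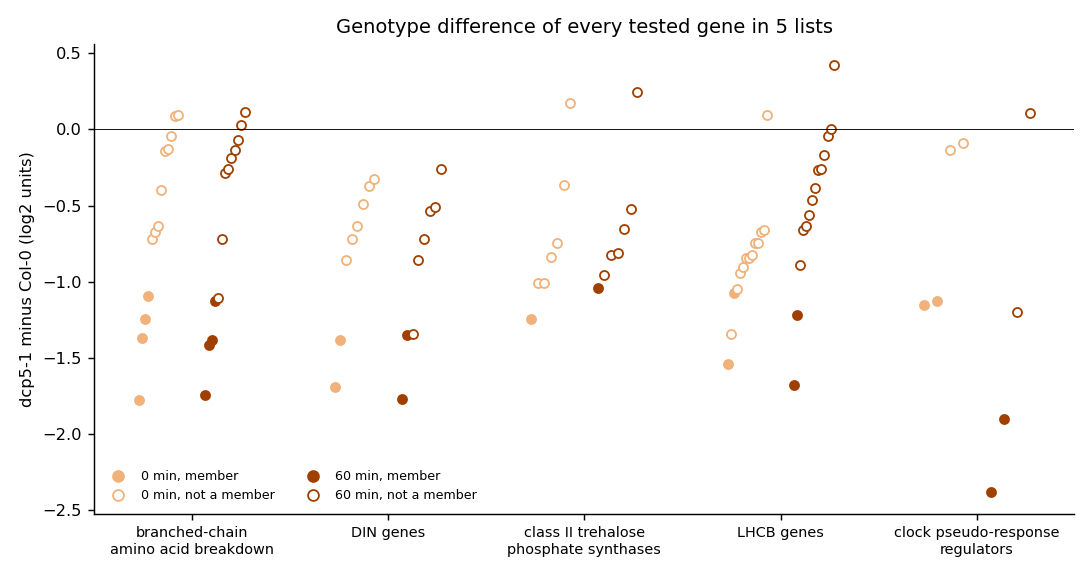
Difference between dcp5-1 and Col-0, in units of log2(FPKM + 1), of every tested gene in 5 lists drawn up after the members were known, at 0 min (pale) and 60 min (dark), with members filled and other genes open. Of the open points of the branched-chain amino acid list, 4 of 9 were called lower at 0 min and 5 at 60 min. The shares of all loci tested were 28.1% and 27.4%. BCE2 and DIN4 are shown both in that list and in the DIN list.

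The circadian clock contributed PRR7 and PRR9, pseudo-response regulators that are expressed in succession through the day and repress the morning genes CCA1 and LHY. PRR9 had 4.49, 4.22 and 4.80 FPKM in Col-0 and 1.09, 1.76 and 1.77 FPKM in dcp5-1 at 0 min. After 60 min it had 39.1, 37.0 and 38.9 FPKM in Col-0 and 6.47, 5.98 and 7.22 FPKM in dcp5-1. All groups were apart, and the gap between genotypes was the wider at 60 min. PRR9 rose by 2.84 log2 units in Col-0 and by 1.58 in dcp5-1 (limma adjusted p = 5.72e-10 and 9.59e-08). PRR7 had 19.7, 15.4 and 16.8 FPKM in Col-0 and 6.92, 8.23 and 6.61 FPKM in dcp5-1 at 0 min. Levels at 60 min were 41.5, 37.6 and 43.6 FPKM in Col-0 and 9.91, 9.89 and 10.8 FPKM in dcp5-1. The Col-0 libraries were all higher at 60 min, while those of dcp5-1 at 60 min stayed below every Col-0 library of 0 min. Its rise was 1.198 log2 units in Col-0 and 0.44 in dcp5-1 (limma adjusted p = 3.68e-07 and 0.00148); over 20 settings the latter p reached 0.127. AT2G46670, a CCT motif gene in the set, is 99.3% identical to PRR9 over 440 nt, so its reads may be shared with PRR9 and its values are uncertain. PRR5 was not called at 0 min (-0.13, limma adjusted p = 0.39) and was lower in dcp5-1 at 60 min (-1.2, limma adjusted p = 1.09e-05), and TOC1 was not called at either time (limma adjusted p = 0.169 and 0.0975). LHY, no member, was higher in dcp5-1 by 0.96 log2 units at 0 min (limma adjusted p = 5.32e-08) and by 1.34 at 60 min (limma adjusted p = 3.99e-09), while CCA1 differed by -0.02 at 0 min (limma adjusted p = 0.736). Of the 16 clock and light regulators tested that were not members, 4 were called lower and 4 higher at 0 min, and 5 and 5 at 60 min. Among all loci tested, 28.1% were called lower and 18.8% higher at 0 min, and 27.4% and 27.1% at 60 min. CCL, a gene known for its clock-controlled mRNA decay, had 375 to 413 FPKM in Col-0 and 166 to 186 in dcp5-1 at 0 min, but shares a stretch of 208 nt at 98.6% identity with XYP2.

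Light harvesting was represented by LHB1B1 and LHCB2.3, which encode chlorophyll-binding antenna proteins of photosystem II. LHCB2.3 had 1033, 1311 and 1160 FPKM in Col-0 and 402, 424 and 371 FPKM in dcp5-1 at 0 min, and 1386, 1484 and 1342 FPKM in Col-0 and 430, 447 and 435 FPKM in dcp5-1 at 60 min. The Col-0 libraries of both times lay far above all of dcp5-1. LHB1B1 had 980 to 1305 FPKM in Col-0 and 515 to 529 in dcp5-1 at 0 min and, unlike LHCB2.3, fell in both genotypes over 60 min, by 1.39 log2 units in Col-0 and 1.54 in dcp5-1 (limma adjusted p = 8.36e-08 and 4.79e-08). Of the 12 other LHCB genes, 11 were called lower in dcp5-1 at 0 min and 0 higher, and 8 lower and 1 higher at 60 min. Over all loci tested, 28.1% were called lower and 18.8% higher at 0 min, and 27.4% and 27.1% at 60 min. A broader list of 23 genes of photosynthesis, LHCB genes among them, held no member, and all 23 were called lower in dcp5-1 at 0 min, while 12 were called lower and 2 higher at 60 min. Their summed level was 58340 to 72810 FPKM in Col-0 and 35870 to 37410 in dcp5-1 at 0 min, and 34640 to 37730 and 30040 to 31120 at 60 min, and none was listed at 0 throughout. The part of this shift in the values of the members was not tested.

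Transcription factors and zinc finger proteins of stress responses formed a further group. ERF6, an ethylene response factor of oxidative and osmotic stress, had 54.2, 79.1 and 57.8 FPKM in Col-0 and 13.8, 14.0 and 13.4 FPKM in dcp5-1 at 0 min. At 60 min the libraries had 11.5, 10.7 and 10.08 FPKM in Col-0 and 2.395, 2.65 and 3.14 FPKM in dcp5-1. It was therefore low in Col-0 at 60 min and lowest in dcp5-1 at that time, with no overlap. It fell by 2.44 log2 units in Col-0 and by 1.99 in dcp5-1 (limma adjusted p = 6.76e-09 and 5.14e-08). SZF1, a tandem CCCH zinc finger gene of salt responses, had 113, 141 and 121 FPKM in Col-0 and 49.9, 46.5 and 50.2 FPKM in dcp5-1 at 0 min, and 17.9, 18.7 and 17.8 FPKM in Col-0 and 6.27, 5.96 and 6.53 FPKM in dcp5-1 at 60 min. It fell in both genotypes, by 2.71 log2 units in Col-0 and 2.78 in dcp5-1 (limma adjusted p = 5.61e-11 and 5.21e-11). OZF1, of the same zinc finger class and linked to oxidative stress, went the other way. Its level was 17.02, 21.9 and 18.7 FPKM in Col-0 and 5.99, 7.28 and 6.09 FPKM in dcp5-1 at 0 min, and 109, 103 and 95.6 FPKM in Col-0 and 37.8, 38.6 and 39.2 FPKM in dcp5-1 at 60 min. The rises were 2.36 log2 units in Col-0 and 2.41 in dcp5-1 (limma adjusted p = 7.83e-10 and 8.06e-10).

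CBF2, a factor of cold acclimation, had 37.2, 49.99 and 39.8 FPKM in Col-0 and 11.4, 14.4 and 13.1 FPKM in dcp5-1 at 0 min, and 34.8, 35.7 and 31.1 FPKM in Col-0 and 10.9, 10.12 and 13.7 FPKM in dcp5-1 at 60 min. It barely passed the threshold for a fall in Col-0 (-0.31 log2 units, limma adjusted p = 0.0488), and that call held in 7 of 20 settings. WRKY33, a factor of defence against fungi, had 43.4 to 49.9 FPKM in Col-0 and 16.5 to 18.7 in dcp5-1 at 0 min, and 55.5 to 58.7 and 19.1 to 19.9 at 60 min. MYBL2, a repressor of anthocyanin synthesis, had 60.5 to 73.5 FPKM in Col-0 and 20.6 to 22.0 in dcp5-1 at 0 min, and rose by 2.096 log2 units in Col-0 and 2.15 in dcp5-1 (limma adjusted p = 2.51e-10 and 2.49e-10). AGL20, also called SOC1, an integrator of flowering signals, had 27.3 to 34.0 FPKM in Col-0 and 12.4 to 13.7 in dcp5-1 at 0 min. Of the 27 tested stress transcription factors outside the set, 18 were called lower and 2 higher in dcp5-1 at 0 min, and 16 and 4 at 60 min. The shares of all loci tested were 28.1% lower and 18.8% higher at 0 min, and 27.4% and 27.1% at 60 min.

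Hormone and seed physiology genes were few. LOX2, a lipoxygenase of jasmonate synthesis, had 13.46, 13.04 and 12.95 FPKM in Col-0 and 5.83, 5.68 and 5.73 FPKM in dcp5-1 at 0 min, and 37.9, 38.8 and 40.4 FPKM in Col-0 and 15.3, 15.3 and 14.8 FPKM in dcp5-1 at 60 min. The libraries of a group were close together and no groups overlapped. It rose by 1.499 log2 units in Col-0 and 1.26 in dcp5-1 (limma adjusted p = 7.77e-11 and 3.79e-10). Of the 15 other jasmonate genes tested, 9 were called lower and 1 higher in dcp5-1 at 0 min, and 12 and 0 at 60 min. For this and the lists below, all loci tested had 28.1% called lower and 18.8% higher at 0 min. Those shares were 27.4% and 27.1% at 60 min. GH3.3, which conjugates auxin to amino acids, had 7.60 to 8.20 FPKM in Col-0 and 1.71 to 2.35 in dcp5-1 at 0 min, and 6.54 to 7.24 and 2.24 to 3.04 at 60 min. Of the 19 other auxin response genes tested, 13 were called lower and 1 higher at 0 min, and 12 and 4 at 60 min. BGLU18, a glucosidase that frees abscisic acid from its glucose ester, had 20.3, 21.4 and 21.5 FPKM in Col-0 and 4.22, 4.84 and 4.81 FPKM in dcp5-1 at 0 min. At 60 min it had 72.0, 62.7 and 67.1 FPKM in Col-0 and 24.8, 24.2 and 24.7 FPKM in dcp5-1, and it rose in both (1.63 log2 units, limma adjusted p = 6.11e-10, and 2.19, limma adjusted p = 7.65e-11). DOG1, a control of seed dormancy, had 3.11 to 4.56 FPKM in Col-0 and 0.582 to 0.697 in dcp5-1 at 0 min, and 3.32 to 3.95 and 0.781 to 0.977 at 60 min. A list of seed maturation genes held no member, and of its 15 tested genes 10 were called lower and 1 higher in dcp5-1 at 0 min, and 7 and 4 at 60 min. These 15 summed to 567 to 599.9 FPKM in Col-0 and 458 to 487 in dcp5-1 at 0 min, and 1 gene of the list, CRU3, was listed at 0 in every library. Lists for root hairs, for suberin and for cutin and wax also held no member once CDEF1 was left out. CDEF1, on the cutin and wax list, differed by -2.09 log2 units at 0 min and by -2.795 at 60 min. Of the tested genes of these lists, 7 of 11, 10 of 16 and, without CDEF1, 19 of 28 were called lower in dcp5-1 at 0 min, while 0, 0 and 3 were called higher, and none of their genes was listed at 0 throughout. The summed root hair list of 17 genes stood at 67.0 to 74.1 FPKM in Col-0 and 53.8 to 57.8 in dcp5-1 at 0 min, and the suberin list at 267 to 277 and 200 to 207. The sum over the tested cutin and wax genes, CDEF1 included, overlapped between genotypes at 0 min, at 10320 to 15040 FPKM in Col-0 and 10720 to 11600 in dcp5-1, and at 60 min it was the higher in dcp5-1, at 9143 to 9715 FPKM against 6945 to 7721 in Col-0. The part of such cell type markers in the members' values was not tested.

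Defence genes included a run of neighbours on chromosome 4. RPP4 and RPP5 encode receptors of the TIR-NBS-LRR class that recognise downy mildew, and they stand in a cluster of related genes with the pseudogene AT4G16870 and the leucine-rich repeat gene AT4G16880. AT4G16870 had 2.29, 2.15 and 2.56 FPKM in Col-0 and 0.253, 0.129 and 0.235 FPKM in dcp5-1 at 0 min. After 60 min it had 6.19, 6.52 and 6.32 FPKM in Col-0 and 0.320, 0.226 and 0.323 FPKM in dcp5-1. The transcript rose in Col-0 (1.14 log2 units, limma adjusted p = 3.28e-07), and its level in dcp5-1 was too low at both times for a change to be assessed on this scale. RPP5 had 15.7, 15.4 and 16.3 FPKM in Col-0 and 7.32, 6.76 and 6.25 FPKM in dcp5-1 at 0 min, and 33.3, 33.2 and 34.5 FPKM in Col-0 and 9.18, 8.34 and 8.74 FPKM in dcp5-1 at 60 min. The level in Col-0 rose by 1.04 log2 units (limma adjusted p = 1.5e-08) and that in dcp5-1 by 0.33 (limma adjusted p = 0.000325), a call lost in 1 of 20 settings. RPP4 had 7.83, 9.04 and 8.06 FPKM in Col-0 and 3.00, 3.29 and 3.77 FPKM in dcp5-1 at 0 min, and 11.2, 11.4 and 11.5 FPKM in Col-0 and 2.67, 2.83 and 2.68 FPKM in dcp5-1 at 60 min. AT4G16880 had 5.93 to 8.23 FPKM in Col-0 and 2.21 to 2.91 in dcp5-1 at 0 min. Of 20 loci annotated from AT4G16870 to RPP5, 7 were tested, and the 3 that were not members were called lower in 2 cases at 0 min and in 3 at 60 min. These were SNC1 (-0.55 and -0.68 log2 units), AT4G16920 (-0.54 and -1.26) and AT4G16900 (-0.08, not called, and -0.37). Called lower among all loci tested were 28.1% at 0 min and 27.4% at 60 min. RPP4 and SNC1 are 95.2% identical over 421 nt, so reads may be divided between them.

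**Figure D4:**
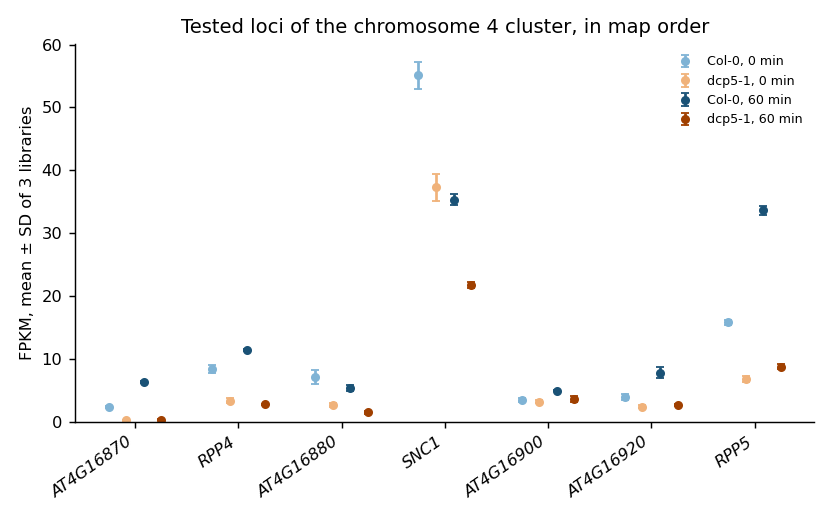
Mean FPKM with SD over 3 libraries of the 7 tested loci of the chromosome 4 cluster, in map order, for each genotype and time. SNC1 is the most abundant, at 55.1 FPKM in Col-0 at 0 min; for AT4G16870, RPP4 and RPP5 the Col-0 mean is higher at 60 than at 0 min.

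The remaining defence genes were of several kinds, and CYP71B26, which is in no defence list, is given with them. No member came from the list of salicylic acid and defence genes, where 2 of 8 tested genes were called lower in dcp5-1 and 1 higher, at 0 min and again at 60 min, with median differences of -0.05 and -0.14. Among all loci tested, 28.1% were called lower and 18.8% higher at 0 min, and 27.4% and 27.1% at 60 min. PEN2, a myrosinase-like glucosidase of penetration resistance, had 30.1 to 35.9 FPKM in Col-0 and 14.7 to 15.8 in dcp5-1 at 0 min, and 54.0 to 55.6 and 23.7 to 25.8 at 60 min. Of the 22 other glucosinolate genes tested, 10 were called lower and 6 higher in dcp5-1 at 0 min, and 8 and 5 at 60 min. Of 3 thionin genes, a list drawn up after the members were known, 2 were tested, and both were members. AT1G66100, a thionin, had 50.8, 67.5 and 55.3 FPKM in Col-0 and 10.0, 9.60 and 11.1 FPKM in dcp5-1 at 0 min, and THI2.2 had 650, 886 and 773 FPKM in Col-0 and 275, 266 and 304 FPKM in dcp5-1. For both, the second Col-0 library was the highest and the dcp5-1 libraries were close together. Both fell in Col-0 over 60 min, AT1G66100 by 0.81 log2 units (limma adjusted p = 7.67e-05) and THI2.2 by 1.13 (limma adjusted p = 7.57e-07). In dcp5-1 they fell as well, AT1G66100 by 0.39 (limma adjusted p = 0.0133, a call lost in 3 of 20 settings) and THI2.2 by 1.12 (limma adjusted p = 1.08e-06). CYP71B26, a cytochrome P450 gene, had 6.76, 6.80 and 6.53 FPKM in Col-0 and 1.47, 1.54 and 1.80 FPKM in dcp5-1 at 0 min, and 27.6, 25.2 and 28.5 FPKM in Col-0 and 4.15, 4.54 and 4.50 FPKM in dcp5-1 at 60 min. It rose in both genotypes, by 1.87 log2 units in Col-0 and 1.05 in dcp5-1 (limma adjusted p = 4.47e-10 and 6.68e-08).

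Besides the chromosome 4 group, 3 pairs of members were annotated next to each other, and in each pair the loci overlap. They were AT1G07887 with HEI10, AT2G30600 with AT2G30615, and AT5G43440 with AT5G06505. AT2G30600, a BTB/POZ gene, had 61.6 to 76.1 FPKM in Col-0 and 25.8 to 29.3 in dcp5-1 at 0 min, and AT2G30615 on the opposite strand had 12.3 to 19.1 and 4.96 to 5.52. AT5G43440, an oxygenase gene, had 4.34 to 6.83 FPKM in Col-0 and 0.862 to 1.48 in dcp5-1 at 0 min, and the non-coding AT5G06505, whose 366 nt lie wholly within it on the other strand, had 2.53 to 3.00 and 0.462 to 1.38. In such pairs the values of both loci may come in part from the same reads. In all, 20 members share at least 200 nt at 95% identity or more with another transcript, among them AT2G05185, whose 826 nt match AT5G22608 at 99.8%, and their values are uncertain to that extent.

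The time in NaCl was tested without use of the rule's contrast. The rule did require a minimum level, since a locus near 0 FPKM in Col-0 at either time could not enter. The shares below are not matched for level: the median in Col-0 at 0 min was 23.5 FPKM in members and 10.07 in all loci. In Col-0, 48 members were called higher and 37 lower at 60 min, which is 45.3% and 34.9% of the 106, against 36.3% and 35.7% of all loci tested. In dcp5-1 the counts were 46 and 33, or 43.4% and 31.1%, against 35.1% and 31.6%. The median change was 0.15 log2 units in Col-0 and 0.13 in dcp5-1, and in all loci it was 0.01 and 0.02. These medians depended on the settings: that of Col-0 ran from 0.096 without 1 library to 0.331 with quantile normalization, and that of dcp5-1 fell to 0.049 with library medians set equal. Rises of at least 1 log2 unit were called for 27 members in Col-0, where 5.25% of all loci had one, and for 22 in dcp5-1, where 4.45% had one. Falls of that size were called for 19 members in Col-0 (10.7% of all loci) and 13 in dcp5-1 (6.55%). Taking both genotypes, 43 of the 106 members were called higher in both, while 28.9% of all loci were. Another 28 of the 106 were lower in each, a share close to the 27.2% of all loci. The remaining class called in neither genotype held 15 members, and it was not counted over all loci.

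The steepest rises were those of GolS2, PRR9 and OZF1 in Col-0 and of GolS2, OZF1 and TPS11 in dcp5-1. The steepest falls were those of SZF1, AT5G03615 and AT5G46295 in Col-0 and of SZF1, AT1G22570 and AT5G03615 in dcp5-1. AT5G03615, a long non-coding RNA, had 101.4, 113.5 and 99.97 FPKM in Col-0 and 25.4, 29.2 and 28.2 FPKM in dcp5-1 at 0 min, and 19.4, 14.6 and 16.1 FPKM in Col-0 and 5.24, 7.11 and 4.08 FPKM in dcp5-1 at 60 min. It fell by 2.59 log2 units in Col-0 and 2.17 in dcp5-1 (limma adjusted p = 2.07e-08 and 1.25e-07). AT5G46295, an uncharacterized gene, had 43.0, 49.9 and 44.6 FPKM in Col-0 and 12.9, 15.4 and 19.5 FPKM in dcp5-1 at 0 min, and 5.75 to 10.4 and 1.15 to 4.399 at 60 min. It fell by 2.51 in Col-0 and 2.11 in dcp5-1 (limma adjusted p = 1.65e-05 and 8.75e-05). AT1G22570, of the major facilitator superfamily of transporters, had 24.5 to 26.4 FPKM in Col-0 and 10.6 to 13.2 in dcp5-1 at 0 min, and 4.67 to 5.33 and 1.38 to 1.78 at 60 min, a fall in both (limma adjusted p = 1.21e-09 and 7.82e-10).

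The difference of these changes between genotypes ran from -1.26 (PRR9) to 0.95 (AT1G07887) over the members, with a median of 0.01. AT1G07887 was at or near 0 in dcp5-1 at both times and could not fall there, so its value restates its fall in Col-0. The difference of the changes was above 0.5 in 8 members and below -0.5 in 9. The added 1 FPKM shrinks changes at low levels, so these counts depend on the scale. In mean FPKM, AT1G76960 went to 0.299 of its 0 min level in Col-0 and 0.333 in dcp5-1, though its difference was 0.745. AT2G28780 went to 0.609 and 0.309, though its difference was -0.05. Since the difference of the changes is made of the same differences that the rule used, it is given without a test.

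**Figure D5:**
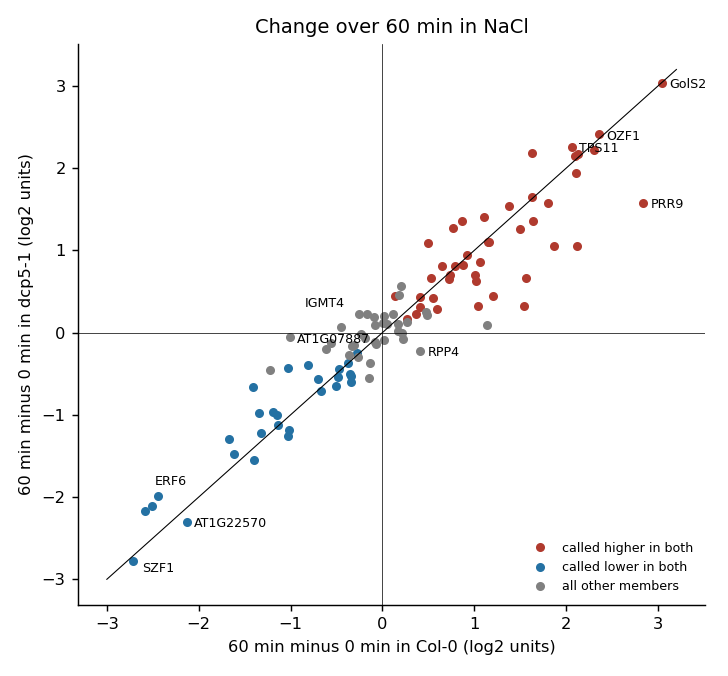
Change of each of the 106 members between 0 and 60 min in 150 mM NaCl, in units of log2(FPKM + 1), in Col-0 (horizontal axis) and dcp5-1 (vertical axis), with the diagonal marking equal changes. Red points (43) were called higher and blue points (28) lower in both genotypes; GolS2 lies on the diagonal at 3.04 and PRR9 below it at 2.84 and 1.58.

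The 250 bases before the annotated start of each member were searched on both strands for 5 short motifs, chosen after the members were known. The core of the evening element, AATATCT or AGATATT on the other strand, which morning clock factors bind, was found in 23 of 106 members (21.7%) and in 9.85% of 19805 nuclear loci. TATCCA, or TGGATA, known from genes that sugar starvation induces in rice, was in 29 members (27.4%) and in 14.3% of loci. The G-box CACGTG was in 13 members (12.3%, against 7.40%), the W-box core TTGAC, or GTCAA, in 52 (49.1%, against 44.7%) and the core of the dehydration-responsive element, GCCGAC or GTCGGC, in 4 (3.77%, against 2.88%). Both the evening core and TATCCA were found before 8 members (7.55%, against 1.7%), and in 3 members different motifs overlapped. A match is only a run of letters, and none of these is shown to be a bound site. The promoters below, from the TAIR10.1 assembly of RefSeq, are shown because they belong to members of the aldolase, amino acid, dark-inducible and clock groups described above; capitals mark the evening core, TATCCA and the G-box on either strand. They are FBA5 (chr4:13390504-13390753, plus strand), ALDH6B2 (chr2:5981900-5982149, minus), ASN1 (chr3:17441432-17441681, minus), PRR7 (chr5:642031-642280, minus) and PRR9 (chr2:19232357-19232606, plus).
FBA5: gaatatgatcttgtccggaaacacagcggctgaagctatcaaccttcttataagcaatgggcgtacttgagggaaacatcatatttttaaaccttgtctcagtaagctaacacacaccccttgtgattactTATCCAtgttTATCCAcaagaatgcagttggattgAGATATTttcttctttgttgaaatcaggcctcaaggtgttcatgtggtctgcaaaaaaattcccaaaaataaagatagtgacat
ALDH6B2: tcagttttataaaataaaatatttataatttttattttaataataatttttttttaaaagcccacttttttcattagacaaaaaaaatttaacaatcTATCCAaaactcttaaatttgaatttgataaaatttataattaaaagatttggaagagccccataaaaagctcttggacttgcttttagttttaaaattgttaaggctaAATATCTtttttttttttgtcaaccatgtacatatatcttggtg
ASN1: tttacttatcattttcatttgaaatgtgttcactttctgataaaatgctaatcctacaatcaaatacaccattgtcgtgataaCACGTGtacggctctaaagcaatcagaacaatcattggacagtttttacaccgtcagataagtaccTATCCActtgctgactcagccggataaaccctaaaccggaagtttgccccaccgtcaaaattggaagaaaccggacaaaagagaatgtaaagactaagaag
PRR7: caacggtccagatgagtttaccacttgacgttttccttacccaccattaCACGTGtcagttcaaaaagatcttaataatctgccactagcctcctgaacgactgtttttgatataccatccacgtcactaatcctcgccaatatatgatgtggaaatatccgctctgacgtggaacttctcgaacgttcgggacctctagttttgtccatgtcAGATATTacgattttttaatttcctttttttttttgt
PRR9: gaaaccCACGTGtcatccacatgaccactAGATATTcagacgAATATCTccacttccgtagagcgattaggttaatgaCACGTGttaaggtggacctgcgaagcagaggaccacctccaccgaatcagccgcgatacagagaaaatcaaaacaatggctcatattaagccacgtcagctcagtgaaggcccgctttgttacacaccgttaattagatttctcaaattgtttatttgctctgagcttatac
FBA5 and ALDH6B2 held both the evening core and TATCCA, and FBA5 held TATCCA at 119 and again at 109 bases before the start. The annotated locus of FBA7 overlaps that of FBA5 on the same strand. The 250 bases shown for FBA5 may therefore lie within FBA7, which was not checked. The ASN1 promoter held TATCCA at 101 and a G-box at 167 bases before the start, and no evening core. PRR7 and PRR9 held the evening core and the G-box without TATCCA, and in PRR9 each of these occurred at 2 places, the evening core at 221 and 208 and the G-box at 244 and 172 bases before the start.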

How the data were processed

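The deposited table holds FPKM values that the authors made from mRNA reads of 12 libraries, and all 12 columns were used. Per the submitters' processing notes, Bowtie (no version) and the TAIR10 build were used; no quantifier or annotation is named in the sources used here. Of 38088 loci, 37792 matched TAIR10.1, which gave symbols, coordinates, lengths and promoters. Values were fitted as log2(FPKM + 1) with limma 3.58.1 (R 4.3.3; 4 group means, trended empirical Bayes, 8 residual and 3.29 prior degrees of freedom) for the 19876 loci that averaged 1 FPKM or more, with two-sided tests, Benjamini-Hochberg adjustment over these loci and calls at 0.05. For single-transcript genes, whole reads were recovered from FPKM: 98.9% to 99.5% of values below 10 reads lay within 0.1 read of a whole number, on scales of 14512000 to 20976000 reads per library. These reads were not used in a count test. For members with several transcripts they were worked out from the longest one, and are uncertain to that extent. The fit was tested on simulated data. Near copies were found with blastn 2.17.0+, tables were made with pandas 2.3.3 and numpy 2.4.6, and figures with matplotlib 3.10.9, in Python 3.11.15.

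Members and lists were chosen with earlier results of these data known. Genes named were the 12 members with the lowest mean difference at 5 FPKM or more in Col-0, members of 18 lists, the 3 steepest called rises and falls per genotype, neighbouring members and the 3 nearest the limit; all others (such as ASN1, DIN10, RPP5 and BGLU18) were chosen after their values were seen. Alternatives were another pseudocount, filters, scalings, removal of a trend with transcript length, a replicate block and leaving out each library.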

Additional observations from a re-analysis of the deposited data

Results flagged for a closer look

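In 2 members the libraries of 0 and 60 min did not overlap in either genotype, and the direction of change was opposite in Col-0 and dcp5-1. Libraries of the 2 times are separate samples with no stated pairing, and the difference between the changes was not tested. IGMT4, an O-methyltransferase gene of indole glucosinolate modification, had 29.3, 32.3 and 32.5 FPKM in Col-0 at 0 min and 26.1, 26.6 and 25.4 at 60 min, and 9.10, 10.8 and 9.90 FPKM in dcp5-1 at 0 min and 11.1, 12.2 and 12.0 at 60 min. Its change was -0.26 log2 units in Col-0 and 0.23 in dcp5-1 (limma adjusted p = 0.00354 and 0.00898), a difference of 0.485. The dcp5-1 call was lost in 3 of 20 settings and the Col-0 call in 1, with quantile normalization (limma adjusted p = 0.096), where the dcp5-1 call was lost too.

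RPP4 was higher by 0.41 log2 units at 60 min in Col-0 and fell by 0.22 in dcp5-1 (limma adjusted p = 0.000303 and 0.0199), a difference of -0.634. The Col-0 call was lost in 1 of 20 settings, where the change was -0.067. The dcp5-1 call was lost without 1 library in 3 cases, with limma adjusted p from 0.053 to 0.0875. Its near copy SNC1 stood at 55.1 FPKM in Col-0 at 0 min.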

How the results depend on the processing

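The rule found 199 loci with a pseudocount of 0.1, all 106 members among them, 14 with a minimum difference of 1.5 log2 units, and 96 with quantile normalization, of which 82 were members. It found 102 to 116 when 1 library was left out. Counts of members called over 60 min stayed within 1.5 times of those reported in all settings run. Without 1 library they were 45 to 51 higher and 34 to 37 lower in Col-0, and 42 to 49 and 29 to 34 in dcp5-1. The median change in Col-0 (0.15) was 0.331 with quantile normalization and 0.315 with the trend with transcript length removed, and 0.096 to 0.151 without 1 library. The median in dcp5-1 (0.13) was 0.049 with library medians set equal, 0.194 with a pseudocount of 0.1, 0.152 with the length trend removed and 0.121 to 0.172 without 1 library. The cause of these shifts was not tested. The direction of 9 calls in Col-0 and 2 in dcp5-1 turned in a setting. With quantile normalization BXL1 (-0.345) and AT4G36850 (-0.353) were called higher in Col-0 instead, at 0.309 and 0.445, while AT2G30600 (-0.27) was at 0.091, DIN10 and AT5G14120 were near 0 in Col-0, and ASN1 in dcp5-1 was at 0.036, none of them called. With the length trend removed, RPP4, CBF2, AT1G67626 and AT2G29670 in Col-0 and RPP5 in dcp5-1 turned and were not called. Of 85 calls in Col-0, 66 held in every setting run, as did 61 of 79 in dcp5-1. With a minimum of 5 FPKM, 3 loci of the chromosome 4 cluster were called lower at each time, since fewer were tested. With the replicate block, 48 members were higher and 36 lower in Col-0 and 46 and 33 in dcp5-1; the numbers share no stated source, and of 18 same-numbered pairs 4 had deviations that correlated above 0.1 (r from -0.104 to 0.18). The deposited table gives FPKM and no read counts, and the 3 libraries per group limit precision throughout.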
